A study of Mus musculus with 12 samples.

Results

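CC chemokine genes were taken as every gene of the table whose symbol was Ccl followed by digits, which gave 9 of 10697 genes: Ccl2, Ccl3, Ccl4, Ccl6, Ccl7, Ccl8, Ccl9, Ccl12 and Ccl25. CC chemokines are small secreted proteins with a pair of adjacent cysteines near the start of the mature protein. They bind G protein-coupled receptors on leukocytes and draw these cells, above all monocytes, macrophages and T cells, along a gradient. Fibroblasts can secrete monocyte attractants such as Ccl2 when stimulated by cytokines, and macrophages make many CC chemokines themselves, often under the control of NF-κB and AP-1.

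The cells were primary mouse adult fibroblasts (MAFs), grown out of biopsies of wild-type C57BL6/j mice in a medium rich in serum. One group was cultured for 24 h with 100 µM thymol, a monoterpene phenol of thyme and oregano, and the other with an equal volume of DMSO, in which thymol had been dissolved. Each group had 6 libraries, made from total RNA with QuantSeq, a method that sequences the 3′ end of polyadenylated transcripts. The labels did not say whether the 6 libraries of a group came from separate animals or cultures. The p-values therefore rest on the spread between these libraries, which may be technical. In limma, used here to test each gene between the groups, the variance of a gene also draws on that of other genes. Its p-values thus do not measure the spread of that gene alone.

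Reads recovered from the table summed to between 5435985 and 9049796 per library. Of 20 fibroblast markers 17 were in the table, and their levels summed to 12918 to 13775 CPM with thymol and to 14439 to 15277 with DMSO, where CPM are the reads of a gene scaled to a common library total. Of 25 macrophage markers 24 were in the table, and their sums were larger, at 21632 to 25583 CPM with thymol and 21424 to 23370 with DMSO. Lyz2 supplied the largest part of these sums, at a mean of 13.69 log2 CPM with thymol and 13.61 with DMSO. The median level over the listed genes was 7.93 log2 CPM for macrophage and 8.13 for fibroblast markers. The sums therefore do not show which cell type supplied more RNA. Transcripts that define macrophages were thus abundant in every library of these cells, whose label names fibroblasts only. None of 10 listed T and NK cell markers and none of 6 mast cell markers was in the table. Other lists had few members there, namely 1 of 8 neutrophil, 1 of 8 dendritic cell, 2 of 8 endothelial, 1 of 8 epithelial and 2 of 8 muscle markers. In such bulk RNA, a smaller number of cells of a type and less RNA per cell cannot be told apart. Which cells made a given chemokine was not tested.

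The 9 genes share the feature that names the family. It is shown here in the coding sequence of each gene, from 5′ to 3′ and read from GENCODE transcripts, so that the members can be compared at that position. Capitals mark the codons of the 2 adjacent cysteines, with 15 bases before and 24 bases after them.
Ccl6: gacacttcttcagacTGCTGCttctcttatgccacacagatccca
Ccl9: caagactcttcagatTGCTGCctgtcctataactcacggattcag
Ccl3: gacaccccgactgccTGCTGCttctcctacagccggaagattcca
Ccl4: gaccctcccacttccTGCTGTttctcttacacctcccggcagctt
Ccl2: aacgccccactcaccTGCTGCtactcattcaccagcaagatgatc
Ccl7: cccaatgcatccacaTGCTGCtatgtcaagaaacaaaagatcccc
Ccl8: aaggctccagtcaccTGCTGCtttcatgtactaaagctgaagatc
Ccl12: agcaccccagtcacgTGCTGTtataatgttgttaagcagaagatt
Ccl25: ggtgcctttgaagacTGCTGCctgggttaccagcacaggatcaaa
The paired codons were TGCTGC in 7 genes, and TGCTGT in Ccl4 and Ccl12. Outside the capitals the members diverged. The longest run of bases that the transcripts of any pair had in common was 25, for Ccl6 and Ccl9, followed by 23 for Ccl2 and Ccl7. No stretch of 50 bases within the last 500 bases of any of the 9 transcripts, where QuantSeq reads start, occurred in a transcript of another gene.

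On the GRCm38 genome 8 of the 9 genes lie on chromosome 11, in 2 clusters of 4. The first cluster holds the genes of the monocyte chemoattractant proteins on the plus strand, Ccl2 at chr11:82035571-82037453, Ccl7 at chr11:82045712-82047525, Ccl12 at chr11:82101845-82103400 and Ccl8 at chr11:82115185-82116799. The second cluster lies 1456.1 kb further on and holds the genes of the macrophage inflammatory protein group. Ccl9 (chr11:83572919-83578636), Ccl6 (chr11:83587882-83593087) and Ccl3 (chr11:83647844-83649355) are on its minus strand, and Ccl4 (chr11:83662584-83664683) follows Ccl3 after 13.2 kb on the plus strand. Ccl25 stands alone on chromosome 8 (chr8:4325210-4360020, plus strand). Genes on the opposite strand overlap Ccl2 (Gm17268), Ccl6 (E230016K23Rik) and Ccl25 (Elavl1). The sources used here did not say whether the counting used strand, so reads of these 3 genes and of the overlapping genes may not be separable.

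In DMSO the 9 levels spanned more than 6 log2 units, from Ccl6 at 9.10 ± 0.163 log2 CPM to Ccl25 at 2.86 ± 0.254 (SD, n = 6). A QuantSeq transcript yields about one tag whatever its length, so these levels can be ordered between genes without a correction for length. The descending order in DMSO was Ccl6, Ccl9, Ccl2, Ccl7, Ccl4, Ccl3, Ccl8, Ccl12 and Ccl25. Ccl6 lay above 98.0% of all genes and Ccl25 above 10.6%. Ranges overlapped between the neighbours Ccl9 and Ccl2, Ccl4 and Ccl3, and Ccl3 and Ccl8, whereas the other neighbours were separated in all 6 libraries. With thymol the order was the same except that Ccl2 stood above Ccl9, with ranges that overlapped. Ranges overlapped there also between Ccl9 and Ccl7, Ccl3 and Ccl8, and Ccl12 and Ccl25. Together the 9 genes amounted to 941.5 ± 159.5 CPM in thymol libraries against 1081 ± 89.5 CPM in DMSO libraries (SD, n = 6), and Ccl6 alone supplied 47.6% ± 7.53 and 50.9% ± 2.40 of these sums.

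**Figure D1:**
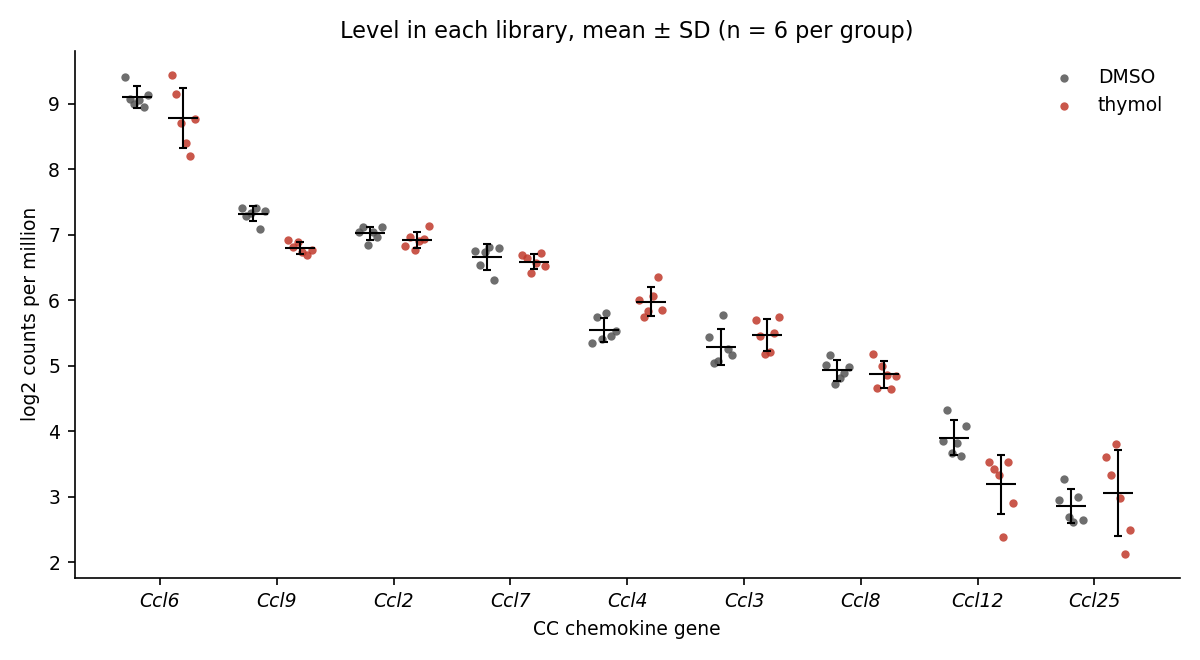
Levels of the 9 CC chemokine genes as log2 CPM (y axis) in each of 6 DMSO and 6 thymol libraries (points), with the mean and SD in black; genes are ordered by their DMSO mean. The groups are separate for Ccl9 (6.69 to 6.92 against 7.09 to 7.41) and Ccl12 (2.39 to 3.53 against 3.62 to 4.33), and the thymol values of Ccl6 are spread from 8.20 to 9.44.

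The comparison of thymol with DMSO asked which of the 9 transcripts responded to the compound. Ccl9 and Ccl12 fell and Ccl4 rose at an adjusted p-value under 0.05 in limma, while the other 6 did not pass. Ccl9 had 0.701 times, Ccl12 0.612 times and Ccl4 1.35 times its level in DMSO. Of all genes tested, 2.22% passed in either direction, 1.57% as lower and 0.654% as higher with thymol. Of the CC chemokine genes 3 of 9 passed in either direction, 2 of them lower and 1 higher. Every thymol library was below every DMSO library in 2 CC chemokine genes and in 1.16% of all genes, and every one was above in none of the 9 and in 0.524% of all genes. The median log2 fold change was -0.065 over the 9 genes and 0.0026 over all genes, and its median size regardless of sign was 0.197 and 0.098.

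**Figure D2:**
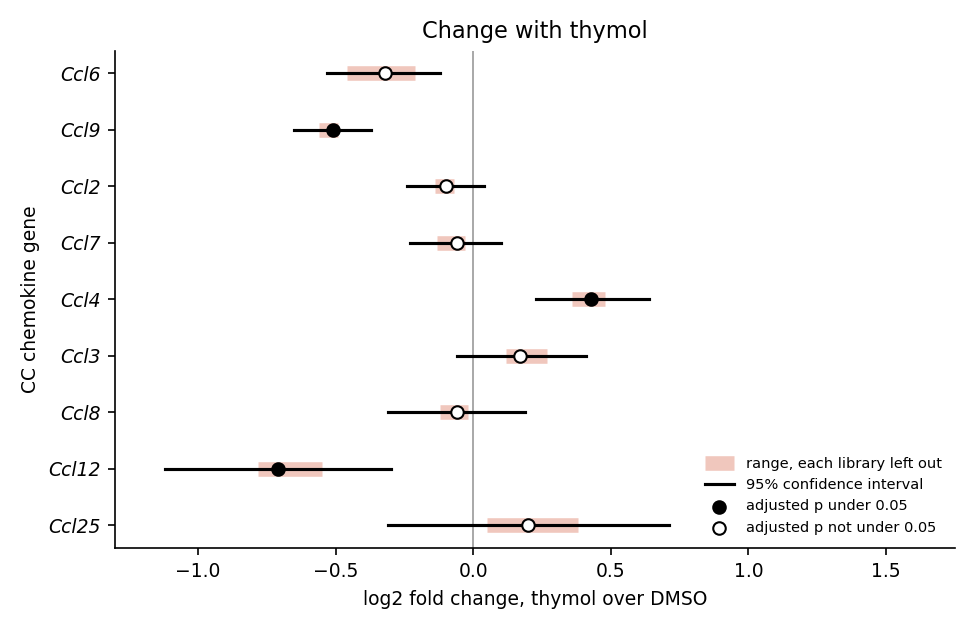
Log2 fold change of each CC chemokine gene with thymol (x axis), with its 95% confidence interval (black line) and the range of the estimate when each library is left out in turn (pale bar); filled points passed an adjusted p-value of 0.05. Ccl9 at -0.51 and Ccl12 at -0.71 lie to the left of 0, Ccl4 at 0.43 lies to the right, and the pale bar of Ccl6 runs from -0.46 to -0.21.

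Among the ligands of Ccr1 on myeloid cells, Ccl9, a macrophage inflammatory protein of rodents, gave the smallest p-value. Its thymol values ran from 6.69 over a median of 6.79 to 6.92 log2 CPM, and its DMSO values from 7.09 over 7.35 to 7.41. No thymol library reached the lowest DMSO library. Means were 6.80 ± 0.089 for thymol and 7.32 ± 0.118 for DMSO libraries (SD, n = 6), on 725.3 and 1132 reads per library on average. The log2 fold change was -0.51 ± 0.069 (SE; 95% confidence interval -0.65 to -0.37) with an adjusted p-value of 8.55e-07. It ranged from -0.56 to -0.49 when any library was left out, and Ccl9 passed the threshold in each of these 12 fits. Ccl9 amounted to 0.462 to 0.517% of the summed macrophage markers with thymol and to 0.629 to 0.785% with DMSO. Lyz2 supplied the largest part of that sum, and single markers moved in both directions. Whether the number of macrophages changed was not tested.

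Ccl6, the gene next to Ccl9 and also a Ccr1 ligand made by macrophages, was the most abundant CC chemokine transcript. The thymol libraries 1 to 6 held 9.44, 9.15, 8.71, 8.40, 8.20 and 8.76 log2 CPM, and the DMSO libraries 9.40, 9.07, 8.99, 9.05, 8.95 and 9.13. Thymol replicates 3, 4, 5 and 6 lay below every DMSO library, whereas replicate 1 lay above all of them and replicate 2 within their range. The SD was 0.46 with thymol and 0.163 with DMSO. Over all libraries the log2 fold change was -0.32 ± 0.10 (SE), and it did not pass the threshold (adjusted p = 0.0752, limma). This SE draws on the variance of other genes as well as on the SDs of Ccl6. With a pseudocount of 10 the change passed (adjusted p = 0.0476), whereas without the mean-variance trend in limma the adjusted p-value was 0.586. Without thymol replicate 1 it was -0.46 (adjusted p = 0.000114) and without thymol replicate 2 it was -0.40 (adjusted p = 0.026), while each of the other 10 omissions left the adjusted p-value above 0.05. Leaving out thymol replicate 5 moved it to -0.21 (adjusted p = 0.297).

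The genes whose deviations from the group means were most like those of Ccl6 over the 12 libraries were Son, which encodes a splicing factor (Pearson r = 0.93), Clec4n, the C-type lectin receptor Dectin-2 of myeloid cells (r = 0.90), and Amdhd2 of amino sugar metabolism (r = 0.88). Clec4n was itself lower with thymol, by -0.90 on the log2 scale (adjusted p = 2.64e-14, limma). For Ccl9 the closest were Slco4a1 and Clcn7 (r = 0.90 each) and Mbd3 (r = 0.88), none of which passed the threshold between groups. The 3 closest genes of each of the other 7 members, such as Hspa9 for Ccl4 (r = 0.88), Ostf1 for Ccl2 (r = 0.87) and Mrpl37 for Ccl8 (r = 0.91), had r from 0.82 to 0.91, and none of them passed. Ccl6 and Ccl9 correlated at r = 0.62 in the same sense. These values describe 12 libraries that share scaling and differ in depth, and the highest of many correlations is large by selection.

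Upstream sequence is shown for the neighbours Ccl9 and Ccl6, of which 1 passed the test, and for the neighbours Ccl12 and Ccl8, of which again 1 did. Ccl6 and Ccl9 were not shown to differ in their response (exact permutation of their log2 ratio, adjusted p = 0.392). For Ccl8 and Ccl12 the ratio did pass (adjusted p = 0.03). Each line gives the 250 bases before the gene's start in RefSeq on GRCm38.p6, read 5′ to 3′ on the gene's strand. The windows are chr11:83578637-83578886 (minus strand) for Ccl9, chr11:83593088-83593337 (minus) for Ccl6, chr11:82101595-82101844 (plus) for Ccl12 and chr11:82114935-82115184 (plus) for Ccl8. Capitals mark matches to the NF-κB consensus, to the AP-1 motif TGANTCA and to the Ets core GGAAGT on either strand, and to TATAAA on the gene's strand. No 2 matches overlap in these windows.
Ccl9: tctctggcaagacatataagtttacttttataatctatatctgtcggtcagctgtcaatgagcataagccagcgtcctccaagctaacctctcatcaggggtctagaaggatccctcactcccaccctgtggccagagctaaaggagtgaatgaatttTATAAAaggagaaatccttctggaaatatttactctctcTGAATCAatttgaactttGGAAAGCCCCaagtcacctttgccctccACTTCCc
Ccl6: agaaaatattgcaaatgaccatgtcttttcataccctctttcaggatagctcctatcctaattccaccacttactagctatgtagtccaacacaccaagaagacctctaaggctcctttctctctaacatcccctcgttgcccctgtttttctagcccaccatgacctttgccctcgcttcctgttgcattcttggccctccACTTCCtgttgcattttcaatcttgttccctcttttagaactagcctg
Ccl12: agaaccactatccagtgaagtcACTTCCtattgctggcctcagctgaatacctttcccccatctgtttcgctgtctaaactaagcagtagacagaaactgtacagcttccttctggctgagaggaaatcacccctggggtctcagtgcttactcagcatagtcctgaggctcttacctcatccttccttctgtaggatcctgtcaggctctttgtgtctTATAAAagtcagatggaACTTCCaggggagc
Ccl8: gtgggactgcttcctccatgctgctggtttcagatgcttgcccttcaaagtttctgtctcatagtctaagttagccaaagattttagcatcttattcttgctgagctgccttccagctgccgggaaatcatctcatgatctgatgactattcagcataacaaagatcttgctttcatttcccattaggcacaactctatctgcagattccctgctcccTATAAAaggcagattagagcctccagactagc
Ccl9 held one match to each of the 4 motifs, AP-1 at positions -53 to -47 and NF-κB at -35 to -26 from the start among them. Ccl6 held an Ets core alone, Ccl12 held TATAAA and 2 Ets cores, and Ccl8 held TATAAA alone. Among 32851 promoter windows of the same length, 7.25% held the NF-κB consensus, 6.75% TGANTCA, 7.59% TATAAA and 19.7% GGAAGT. Windows were found for 6 of the 9 genes. A match in letters is a description of the sequence and does not show binding. Whether the matches bear on the response of a gene was not tested. The longest run in common over the windows with the 50 bases after the start was 13 bases for Ccl6 and Ccl9 and 11 for Ccl12 and Ccl8.

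Ccl3 and Ccl4 are inflammatory attractants of monocytes and T cells whose genes lie side by side. Ccl4 ran from 5.75 over a median of 5.93 to 6.35 log2 CPM with thymol and from 5.35 over 5.49 to 5.81 with DMSO. Only thymol replicate 2, at 5.75, fell within the DMSO range, and 5 of 6 thymol libraries exceeded all DMSO libraries. The means were 5.98 ± 0.216 and 5.55 ± 0.185 (SD, n = 6), with 272 to 738 reads per library. Ccl4 rose by a log2 fold change of 0.43 ± 0.101 (SE; adjusted p = 0.00782, limma), and the change stayed between 0.36 and 0.48 and past the threshold in all 12 fits that left out a library. Without the mean-variance trend in limma it did not pass (adjusted p = 0.133).

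Ccl3 ranged from 5.18 over 5.48 to 5.75 log2 CPM with thymol and from 5.04 over 5.21 to 5.77 with DMSO, so that the groups overlapped throughout. Its log2 fold change was 0.17 ± 0.118 (SE; 95% confidence interval -0.06 to 0.41; adjusted p = 0.627, limma). Relative to Ccl4, Ccl3 stood at a log2 ratio of -0.51 ± 0.322 in thymol libraries and -0.26 ± 0.277 in DMSO libraries (SD, n = 6). This difference of -0.26 did not pass an exact two-sided permutation test (p = 0.165, adjusted p = 0.257 over 36 pairs), so the neighbours were not shown to differ in their response. Libraries high in Ccl4 were not those high in Ccl3, with a correlation of 0.16 after the group means were removed.

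The first cluster on chromosome 11 encodes attractants of monocytes, of which Ccl2, Ccl7 and Ccl12 act on Ccr2. Ccl2, the main monocyte attractant of stromal cells, ran from 6.77 over 6.91 to 7.13 log2 CPM with thymol and from 6.84 over 7.04 to 7.12 with DMSO. The groups overlapped, with 2 thymol libraries below and 1 above all DMSO libraries. The log2 fold change of Ccl2 was -0.10 ± 0.071 (SE; 95% confidence interval -0.24 to 0.04; adjusted p = 0.649, limma). Ccl7, a close relative next to it, ran from 6.42 over 6.60 to 6.72 with thymol and from 6.31 over 6.75 to 6.81 with DMSO. All 6 thymol values of Ccl7 lay below the DMSO median but within the DMSO range, and its log2 fold change was -0.06 ± 0.081 (SE; 95% confidence interval -0.23 to 0.10; adjusted p = 0.845). These intervals bound a change of either gene at 0.845 to 1.07 times the DMSO level.

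Ccl12, a monocyte attractant found in mice, rested on few reads. Its thymol libraries 1 to 6 held 73, 62, 63, 29, 102 and 39 reads, and its DMSO libraries 106, 138, 100, 92, 75 and 117. As log2 CPM this was 2.39 to 3.53 with thymol (median 3.39) and 3.62 to 4.33 with DMSO (median 3.83), so that the groups did not overlap although the highest thymol library (3.53) came close to the lowest DMSO library (3.62). Ccl12 fell by 0.71 on the log2 scale (SE 0.205; adjusted p = 0.0495, limma), just inside the threshold. With a pseudocount of 10 it fell by 0.37, less than Ccl9 at -0.48, so that its size depends on the constant added to low values. The call was lost with quantile normalization (adjusted p = 0.0635), voom on the recovered reads (0.0703) and limma without the mean-variance trend (0.161). Adjusted p-values rose to between 0.0514 and 0.162 when thymol replicate 2, 3, 4 or 6 or DMSO replicate 1, 2, 3, 4 or 6 was left out, while the log2 fold change stayed between -0.78 and -0.55. Ccl8, which lies 11.8 kb from Ccl12, ran from 4.65 over 4.86 to 5.18 with thymol and from 4.72 over 4.93 to 5.16 with DMSO, with a log2 fold change of -0.06 ± 0.123 (SE; adjusted p = 0.923).

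Ccl25, a thymic and intestinal chemokine that binds Ccr9 on T cells, was the least abundant of the 9 genes with 29 to 88 reads per library. Its thymol values ran from 2.13 over 3.17 to 3.81 log2 CPM and its DMSO values from 2.62 over 2.83 to 3.27. The thymol libraries straddled the DMSO range, with 3 above and 2 below all DMSO values. The log2 fold change of 0.20 ± 0.254 (SE; 95% confidence interval -0.31 to 0.71; adjusted p = 0.852, limma) left changes in both directions possible at this depth.

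Ratios between genes of one library do not depend on how the libraries are scaled, apart from the small prior count, and so they were compared for all 36 pairs of the 9 genes. In exact two-sided permutation tests with 6 libraries per group, 15 pairs passed an adjusted p-value of 0.05, and each of these involved Ccl4 (6 pairs), Ccl12 (6 pairs) or Ccl9 (5 pairs), the 3 genes that passed the test between groups. The ratios are made of the same values as that test, and pairs share genes, so they give no independent support for it. Ccl9 exceeded Ccl2 in all 6 DMSO libraries, but Ccl2 exceeded Ccl9 in 4 of 6 thymol libraries. The log2 ratio of Ccl2 to Ccl9 moved from -0.30 ± 0.139 to 0.12 ± 0.188 (SD, n = 6; exact permutation p = 0.00216, adjusted p = 0.0156), with no overlap between the groups. The ratio of Ccl4 to Ccl9, which lie in the same cluster, moved further, from -1.77 ± 0.201 to -0.82 ± 0.278, also without overlap (difference 0.94; exact permutation p = 0.00216, adjusted p = 0.0156). The p-value of 0.00216 is the smallest that 6 against 6 libraries can give, and 5 pairs reached it. These are Ccl2 and Ccl9, Ccl4 and Ccl9, Ccl7 and Ccl9, Ccl4 and Ccl12, and Ccl7 and Ccl12.

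**Figure D3:**
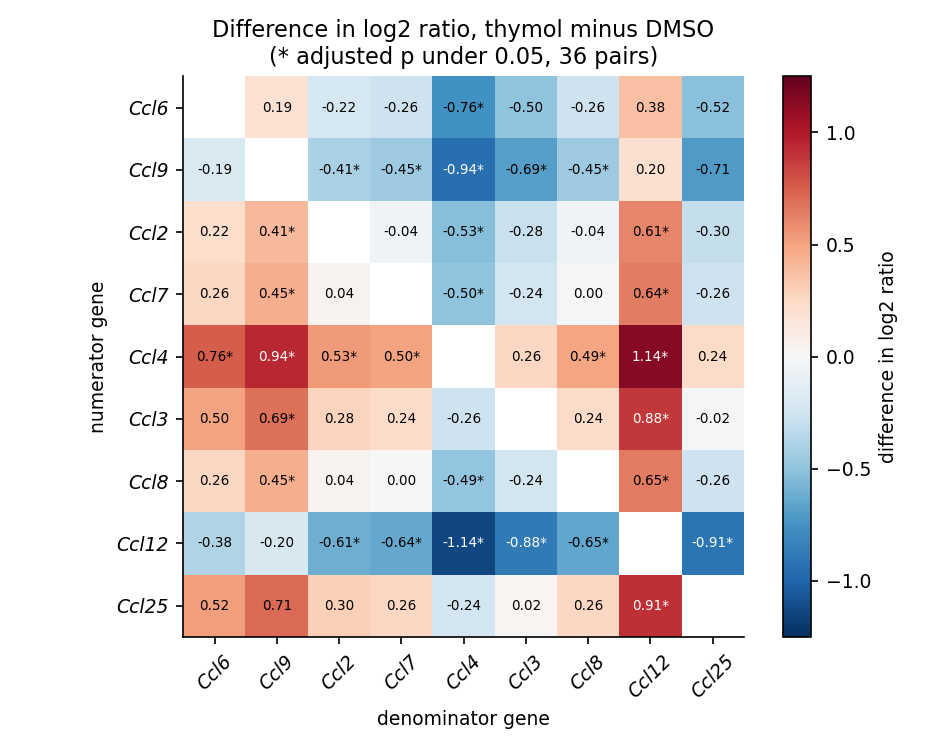
Difference between thymol and DMSO in the mean log2 ratio of each pair of CC chemokine genes, with the numerator in rows and the denominator in columns; red is higher and blue lower with thymol, and an asterisk marks an adjusted p-value under 0.05 over 36 pairs. The row of Ccl4 is red against Ccl6, Ccl9, Ccl2, Ccl7, Ccl8 and Ccl12, and the rows of Ccl9 and Ccl12 are blue against most others.

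Next-door genes differed less uniformly. Between Ccl2 and Ccl7 the log2 ratio was 0.33 ± 0.162 in thymol and 0.36 ± 0.215 in DMSO libraries, and the difference of -0.04 did not pass (exact permutation p = 0.766, adjusted p = 0.811). For Ccl6 and Ccl9 the difference of 0.19 did not pass either (exact permutation p = 0.294, adjusted p = 0.392), so that a smaller response of Ccl6 was not shown. The ratio of Ccl8 to Ccl12 did rise, from 1.03 ± 0.161 to 1.68 ± 0.494 (exact permutation p = 0.0108, adjusted p = 0.03). The 8 genes other than Ccl6 summed to 484.3 ± 19.4 CPM in thymol libraries and to 529.3 ± 36.2 CPM in DMSO libraries, and Ccl9 made up 23.1% ± 1.64 and 30.1% ± 1.20 of these sums (SD, n = 6).

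**Figure D4:**
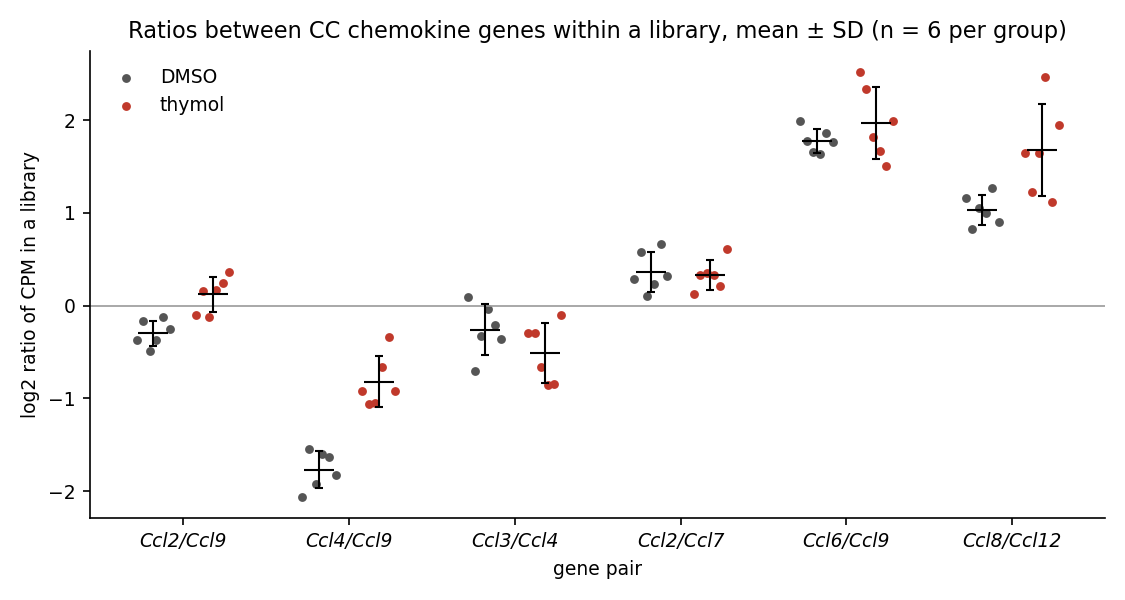
Log2 ratio of CPM between 2 CC chemokine genes in each library (points) for 6 gene pairs, with the mean and SD in black (n = 6 per group). The groups are separate for Ccl2/Ccl9 (means -0.30 and 0.12) and Ccl4/Ccl9 (-1.77 and -0.82) and overlap for the neighbours Ccl3/Ccl4, Ccl2/Ccl7, Ccl6/Ccl9 and Ccl8/Ccl12.

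Of the receptors of these ligands, Ccr1 is reported here, and it did not pass the threshold. Ccr1, the receptor of Ccl3, Ccl6 and Ccl9, stood at 3.27 ± 0.547 log2 CPM in thymol and 3.84 ± 0.254 in DMSO libraries (SD, n = 6; log2 fold change -0.57 ± 0.211, SE; adjusted p = 0.193, limma). Ccr2, through which Ccl2, Ccl7 and Ccl12 act, was not analysed here. The level of Ccr1 was close to that of Ccl12 and below those of Ccl6 and Ccl9.

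Other chemokine families were represented by 8 of 17 listed genes, of which 2 fell and none rose, where 1.57% of all genes tested were lower and 0.654% higher. Cxcl2, a neutrophil attractant, fell by 1.96 on the log2 scale (adjusted p = 8.37e-09, limma), and Pf4, a CXC chemokine of platelets and macrophages, fell by 1.08 (adjusted p = 1.33e-08). Both estimates exceeded that of any CC chemokine gene in size. Cxcl12, a stromal chemokine with a level between those of Ccl6 and Ccl9, had a log2 fold change of 0.03 ± 0.065 (SE; adjusted p = 0.947). The median log2 fold change of the 8 genes was -0.615, against 0.0026 over all genes. An unadjusted limma p-value under 0.05 was found for 5 of the 8, and for 1261 of all 10697 genes.

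The list of signalling and adhesion partners of chemokine receptors had 26 measured genes, 1 of them higher and 1 lower with thymol. For this and the next 2 lists, the share over all genes tested was 0.654% higher, 1.57% lower and 2.22% in either direction. Rgs2, which switches off G protein signals, rose by 0.40 ± 0.07 on the log2 scale (SE; adjusted p = 0.000117, limma), and Itgam, the integrin chain that leukocytes use to adhere, fell by 0.31 (adjusted p = 0.000705). Of 11 measured genes for binding or cutting chemokines 1 passed, namely Mmp12, the macrophage elastase, which rose by 0.45 ± 0.065 (SE; adjusted p = 5.32e-06). Of 37 measured regulators of chemokine transcription 6 fell and none rose. The 5 with the smallest p-values were Fos (log2 fold change -0.77, adjusted p = 0.000255) and Fosl2 (-0.26, adjusted p = 0.00234) of AP-1, Cebpd, a C/EBP factor (-0.38, adjusted p = 0.00154), and the NF-κB inhibitors and partners Nfkbia (-0.23, adjusted p = 0.0184) and Bcl3 (-0.48, adjusted p = 0.0361). The median log2 fold change of the 37 regulators was -0.045. Whether their levels bear on those of the CC chemokine genes was not tested.

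**Figure D5:**
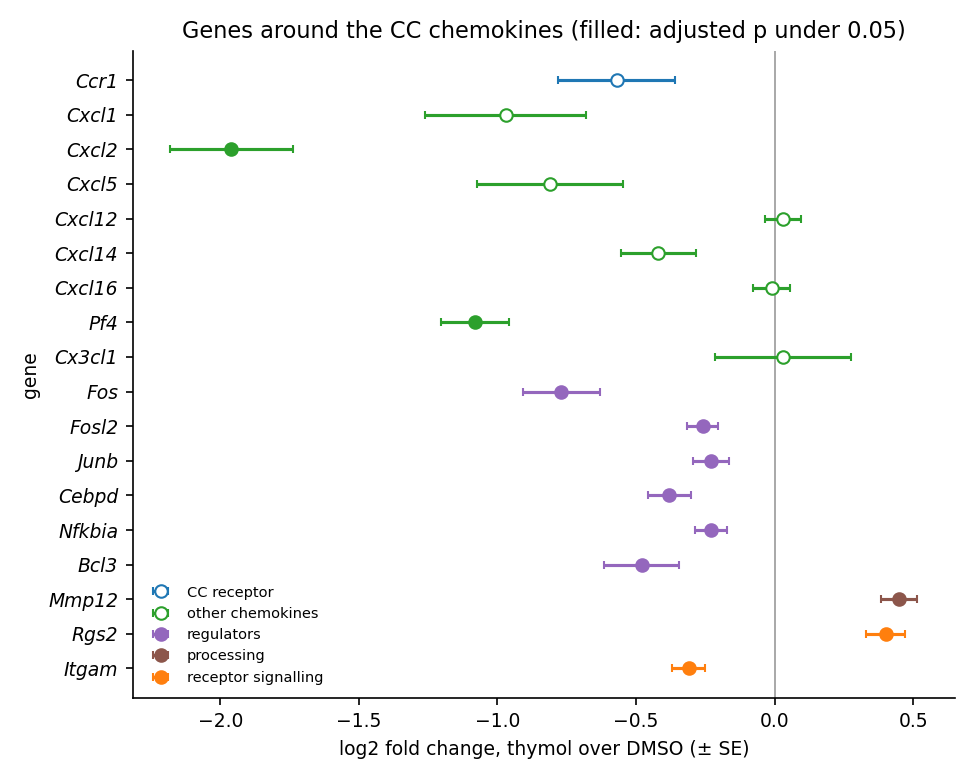
Log2 fold change with thymol (x axis, ± SE) of the receptor Ccr1, of other chemokines and of the regulators, processing enzymes and receptor signalling genes that passed the threshold; filled points have an adjusted p-value under 0.05. Cxcl2 at -1.96 and Pf4 at -1.08 lie furthest to the left, and Rgs2 at 0.40 and Mmp12 at 0.45 lie on the right.

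Macrophage and fibroblast markers moved as follows beside these results. Of 24 measured macrophage markers 3 were higher with thymol (Ctss, Cybb and Trem2) and 2 lower (Cd14 and Itgam), with a median log2 fold change of 0.001. Of 17 fibroblast markers 2 were lower (Col1a1 and Col3a1) and none higher, with a median of -0.101. Over all genes tested 0.654% were higher and 1.57% lower. The ranges of the summed fibroblast markers did not overlap between the groups, whereas those of the summed macrophage markers did. Such sums weigh the most abundant genes most, for fibroblasts Col1a1 at a mean of 11.68 log2 CPM with thymol and 11.95 with DMSO. Single fibroblast markers had fold changes of both signs. Among the few measured markers of other cell types, Itgax of the dendritic cell list was higher (0.45, adjusted p = 0.0216, limma) and Acta1 of the muscle list lower (-0.45, adjusted p = 5.03e-05), while no neutrophil, endothelial or epithelial marker passed. The part of these shifts in the levels of the CC chemokine genes was not tested.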

How the data were processed

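The authors aligned QuantSeq reads to GRCm38 with STAR 2.5.3, counted them per gene with HTSeq 0.6.1, dropped genes that did not have 30 reads in 6 samples (98.0% of the listed genes met this on the recovered reads), and applied TMM scaling (trimmed mean of M-values). The deposited values are log2 CPM (counts scaled to a common total) with a prior count, added by the authors (1.96 reads in an average library), which pulls low genes towards 0. Whole reads were recovered from the steps between low values (100% within 0.02 of a whole read). The log2 values were tested with limma 3.58.1 in R 4.3.3 (mean-variance trend, 2 groups, no covariate). Two-sided p-values were adjusted over all genes tested (Benjamini-Hochberg, threshold 0.05). Fold changes are thymol minus DMSO. Log2 ratios between members were compared by exact permutation over 924 relabellings. The limma fit was tested on simulated counts.

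The members and gene lists were chosen with earlier results of these data known. Every member was named, with up to 5 genes of each list that passed the threshold and had the smallest p-values, and the 3 genes with a mean of at least 5 log2 CPM most correlated with a member (given for Ccl6 and Ccl9, with examples for others). Marker genes named passed the threshold, except Lyz2. Ccr1, Cxcl12 and Lyz2 were named outside this rule, after their values were seen. Alternatives were other scalings, pseudocounts, a filter on low values, limma without trend, voom on the recovered reads, the replicate number as a term, and each library left out. Coordinates are those of GENCODE vM21 (GRCm38), and promoters those of RefSeq (GRCm38.p6). One gene of the receptor list is not reported here.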

Additional observations from a re-analysis of the deposited data

Results flagged for a closer look

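In 20 groups of 6 values tested for a single distant library, 2 had one, where chance gives about 1 in 20. DMSO replicate 5 was low in Ccl9 at 7.09 log2 CPM, with a gap of 0.633 of the group's range to its nearest neighbour. It still lay above every thymol library, and Ccl9 passed the threshold without it. Thymol replicate 5 had 9049796 recovered reads, a gap of 0.682 of the range, and was therefore the most deeply read library. It held the lowest Ccl6 and Ccl9 values and the highest Ccl4 value of the thymol group.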

How the results depend on the processing

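Ccl9 kept its direction and passed the threshold under 9 of 9 alternatives, Ccl4 under 8 of 9 and Ccl12 under 5 of the 8 that could test it. The number of CC chemokine genes called lower was 2, and became 1 with quantile normalization, 1 with voom on the recovered reads, and 1 with a mean of at least 5, which removed Ccl12 from the test. Without the mean-variance trend 1 was called lower and 0 higher, and the genes called over the table numbered 57 in place of 238. When each library was left out, the count of lower genes ranged from 1 to 3, that of higher genes stayed at 1, that of genes over the table ranged from 172 to 270, and that of pairs with a changed ratio from 10 to 16. Ccl12 fell by 0.37 with a pseudocount of 10, which shrinks genes with few reads. Ccl6 passed with that pseudocount (adjusted p = 0.0476, limma), and had an adjusted p-value of 0.586 without the mean-variance trend. No fold change reversed under any alternative, and the term for odd or even numbers changed no call of the 9 genes.

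Over genes with a mean of at least 5 log2 CPM, libraries with the same replicate number deviated little together, with correlations from -0.051 to 0.27. The numbers were therefore not taken as pairs. In Ccl6, however, replicate 1 was the highest of both groups (9.44 with thymol, 9.40 with DMSO) and replicate 5 the lowest of both (8.20 and 8.95). With a replicate block 332 genes passed, Ccl6 among them (adjusted p = 0.000516, limma), and 3 CC chemokine genes were lower and 1 higher. The paired exact sign-flip test of the ratios called 0 of 36 pairs, because its smallest p-value of 0.0312 would have to occur in 23 pairs and occurred in 11. The counts of 29 reads for Ccl12 and Ccl25 limit what can be said of them at this depth.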
